A study of Mus musculus with 6 samples.

Results

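G protein-coupled receptor genes were followed through an extraction comparison in mouse astrocytes, and 104 of the 13970 genes listed in the authors' deposited tables belonged to the family. They were taken as protein-coding rows whose symbol met a pattern of receptor names: numbered GPR and GPRC5 genes, adhesion receptors (Adgr), frizzled receptors (Fzd), and receptors for lysophospholipids, nucleotides, adenosine, prostanoids, amines, acetylcholine, glutamate, GABA, chemokines and several peptides. Of the 104 receptor genes, 96 were listed in both extractions, 5 in the optimized extraction alone and 3 in the standard extraction alone. The cells were primary astrocytes of newborn C57BL/6JOlaHsd mice, male and female pooled, thawed, cultured and left untreated. In the optimized extraction (3 libraries, batches A, B and C) lysis took place in the culture dish with DDM, a mild detergent, and more potassium chloride. In the standard extraction (3 libraries, batches A, B and C) cells were scraped off, frozen and broken with sodium deoxycholate and Triton X-100 at less potassium chloride. Cycloheximide, which arrests ribosomes on mRNA, was present in both. RNA that sedimented through a sucrose cushion with ribosomes and other heavy complexes was sequenced. The deposited measure is 1 log2 ratio per gene, optimized over standard, with no value per library. The spread between batches and the depth are therefore unknown, no gene was tested, and a difference between 2 genes cannot be set against replicate error.

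G protein-coupled receptors thread the membrane with a bundle of helical spans and pass an outside signal to a heterotrimeric G protein on the inner face, whose alpha subunit and beta-gamma pair then act on enzymes such as adenylyl cyclase and phospholipase C. Receptor kinases phosphorylate the active receptor, arrestins then bind it and end the signal, and RGS proteins speed the return of G alpha to its resting state. Their mRNAs are translated by ribosomes at the endoplasmic reticulum membrane. Astrocytes are known to answer glutamate, ATP, adenosine, noradrenaline and endothelin through such receptors, often with calcium or cyclic AMP signals.

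All 10 astrocyte markers looked for were listed in both extractions, among them Gfap, Aqp4 and Aldh1l1. Of 8 microglial markers 2 (Tmem119 and Cd68) were listed in both, and the microglial receptor genes Cx3cr1 and P2ry12 were listed in neither. Of 8 neuronal markers 4 were listed in both and 2 (Syp and Syn1) in the standard extraction alone. The counts listed in both were 6 of 8 for the oligodendrocyte lineage, 3 of 5 for endothelial cells and 7 of 7 for fibroblasts and mural cells. Markers of several cell types were thus listed, and in such bulk RNA fewer cells of a type and less RNA per cell cannot be told apart. The median log2 ratio of the markers listed in both was 0.85 for astrocytes, 0.80 for microglia, 0.68 for neurons, 0.94 for the oligodendrocyte lineage, 0.81 for endothelial cells and 0.65 for fibroblasts and mural cells. Each was below the 1.09 of all shared genes, as was the 0.90 of the receptor genes. The highest marker lay above 1.09 for astrocytes (1.11), neurons (1.16), the oligodendrocyte lineage (1.27) and fibroblasts and mural cells (1.12). It lay below for microglia (0.85) and endothelial cells (0.94), with 2 and 3 genes listed in both. The part of cell types in the ratios was not tested.

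The receptor genes lay low among deposited ratios that were nearly all above 0, as 13226 of the 13278 shared genes were. The sources used here do not give the scaling between libraries. The zero point of the ratio is therefore unknown, and a fold value cannot be read as recovery of mRNA. Over the 96 genes listed in both, the median log2 ratio was 0.90 (quartiles 0.74 and 1.06), a deposited 1.87-fold, optimized over standard. Over all 13278 shared genes it was 1.09 (quartiles 0.90 and 1.27). Of the 96 receptor genes 34 (35.4%) were at least 2-fold higher, where 63.0% of all shared genes were. Under the median of all shared genes were 76 of the 96 (79.2%), against 50.0% of all shared genes by construction. Below the first quartile of the shared genes lay 50 receptor genes, and above the third quartile 5. No receptor gene was at least 2-fold lower, as was 1 shared gene (0.00753%). A cutoff of 1.5-fold took in 85 receptor genes, against 94.6% of all shared genes. Set against the median of all shared genes, 1 receptor gene, Grm5, was at least 2-fold below it, where 0.587% of all shared genes were, and none was at least 2-fold above it, where 0.678% of them were.

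**Figure D1:**
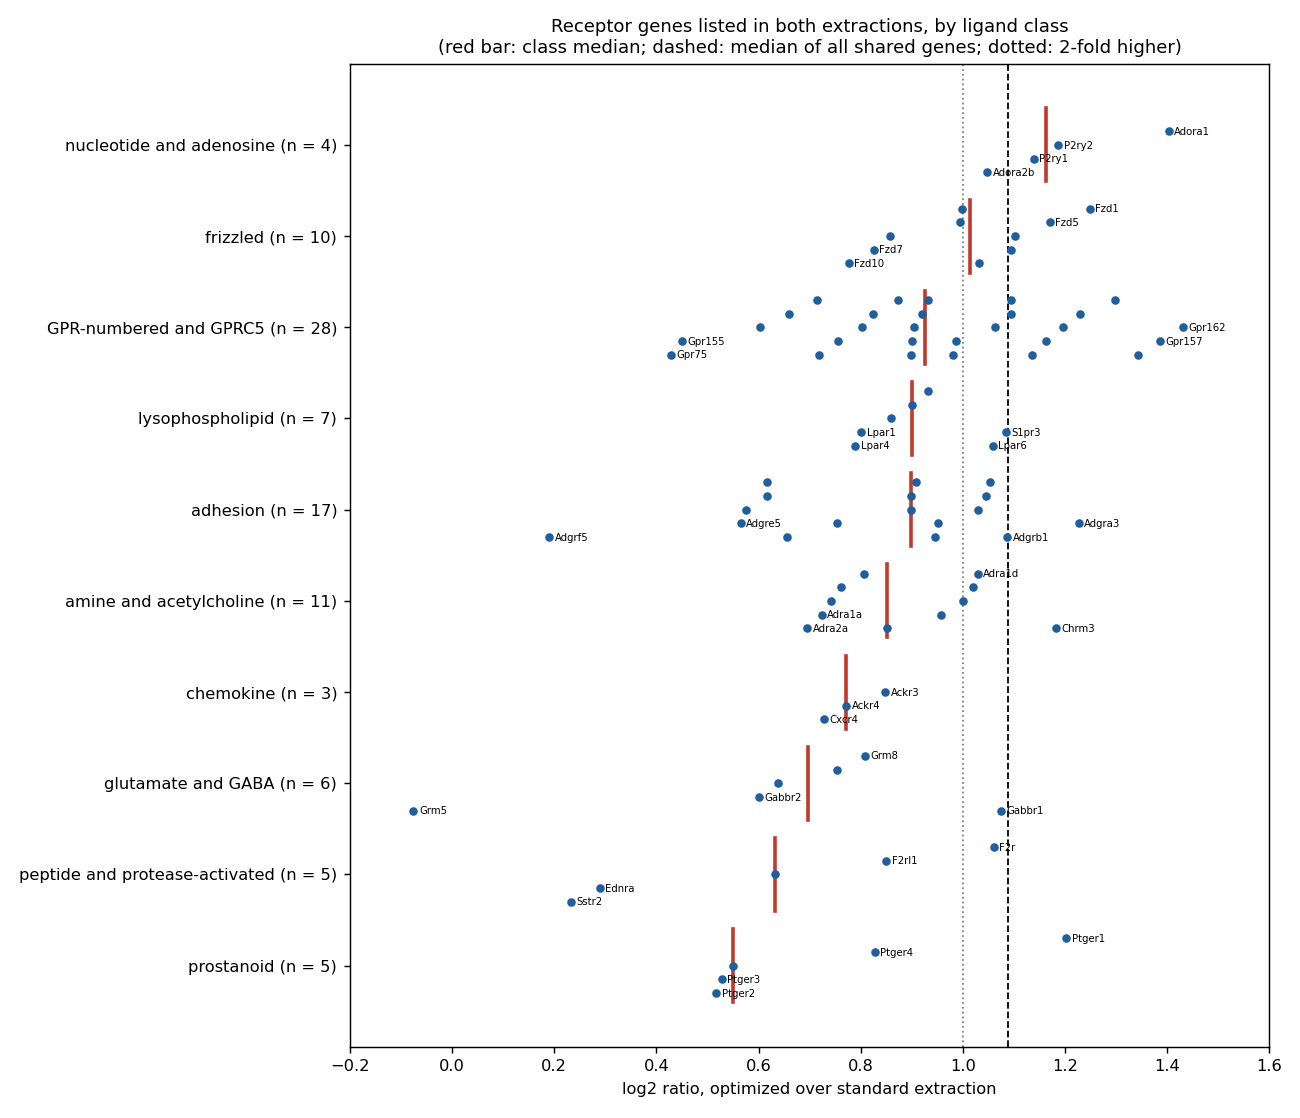
Log2 ratio (optimized over standard extraction, x axis) of each of the 96 receptor genes listed in both extractions, 1 point per gene with the lowest and highest 2 of each class labelled, with ligand classes as rows, a red bar at each class median, a dashed line at the median of all shared genes (1.09) and a dotted line at 2-fold higher. Grm5 is the only point below 0, and the nucleotide and adenosine class is the only class whose median lies right of the dashed line.

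The lowest gene of the family was a glutamate receptor gene, and the highest an orphan receptor gene. Grm5 (mm10 chromosome 7, 87584168 to 88134907), a metabotropic glutamate receptor that couples to G alpha q and to calcium release, stood at -0.08 in the authors' deposited table, 0.949-fold, and was the 35th lowest of the 13278 shared genes. Its nearest listed relative by protein sequence was Grm3 (44.4% identity), a receptor that lowers cyclic AMP and is known in astrocytes, which the authors' deposited table gave as 0.64. At the other end the authors' deposited table had Gpr162 (chromosome 6, 124858444 to 124863983), an orphan receptor gene, at 1.43, a 2.69-fold higher value. Its nearest listed relative, the orphan receptor gene Gpr153 (49.5% identity), stood at 1.34 in the authors' deposited table. The coding stretch around the most hydrophobic window of 19 residues is shown for these 4 genes, since such membrane spans are what the family shares. Sequences are from GENCODE release M21 transcripts (GRCm38), 87 bases each on the coding strand and each within 1 exon. Capitals mark the 57 bases that encode the window, and they are flanked by 15 bases on each side.
Gpr162: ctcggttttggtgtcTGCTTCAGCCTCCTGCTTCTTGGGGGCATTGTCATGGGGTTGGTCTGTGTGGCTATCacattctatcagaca
Gpr153: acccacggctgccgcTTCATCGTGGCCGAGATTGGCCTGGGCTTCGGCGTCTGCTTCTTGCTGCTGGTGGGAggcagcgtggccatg
Grm5: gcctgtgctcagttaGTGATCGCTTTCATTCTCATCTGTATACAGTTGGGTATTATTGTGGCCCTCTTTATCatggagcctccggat
Grm3: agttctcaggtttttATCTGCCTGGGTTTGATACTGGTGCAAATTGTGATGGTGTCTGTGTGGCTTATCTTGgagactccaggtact
The Gpr162 stretch lies at chr6:124861071-124861157 on the minus strand and encodes the window of residues 182 to 200. The Gpr153 stretch is at chr4:152279960-152280046 on the plus strand. The Grm5 stretch is at chr7:88074568-88074654 on the plus strand, and the Grm3 stretch at chr5:9511707-9511793 on the minus strand. Codons with T in the middle, which encode phenylalanine, leucine, isoleucine, methionine or valine, made up 12 of the 19 in the windows of Gpr162 and Gpr153. They made up 14 of the 19 in those of Grm5 and Grm3. High counts follow from the choice of the most hydrophobic window, since these residues are hydrophobic, so the counts only describe the stretches. The GC content of the stretch was 51.7% in Gpr162 and 66.7% in Gpr153, and 46.0% in Grm5 and 44.8% in Grm3.

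The spans were a shared trait of the family that follows from its choice by receptor names. A Kyte-Doolittle mean of at least 1.6 over 19 residues counted as a hydrophobic segment, and 93 of the 96 receptor genes encoded 5 to 8 of them. The 417 other shared protein-coding genes with 5 to 8 such segments had a median log2 ratio of 0.86. Of these 107 (25.7%) were at least 2-fold higher, where 63.0% of all shared genes were. This group left out only genes of the symbol pattern. It still held receptor genes outside the pattern and overlapped the channel and carrier families below. The 8266 other shared protein-coding genes with no segment had a median of 1.14. Other families of surface proteins had medians near that of the receptors: 0.90 for 78 growth factor and cytokine receptor genes, 0.83 for 103 ion channel subunit genes and 0.83 for 187 solute carrier genes outside the SLC25 family. At least 2-fold higher were 22, 27 and 43 of them in that order, 28.2%, 26.2% and 23.0%. These differences between families were not tested. The lowest ion channel and solute carrier genes reached below the lowest receptor gene: the authors' deposited table gave the potassium channel gene Kcnj15 as -0.15, the nicotinic receptor gene Chrna7 as -0.12 and the amino acid carrier gene Slc38a4 as -0.13. The lowest growth factor and cytokine receptor gene, Il1rapl1, stood at 0.24 in the authors' deposited table.

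**Figure D2:**
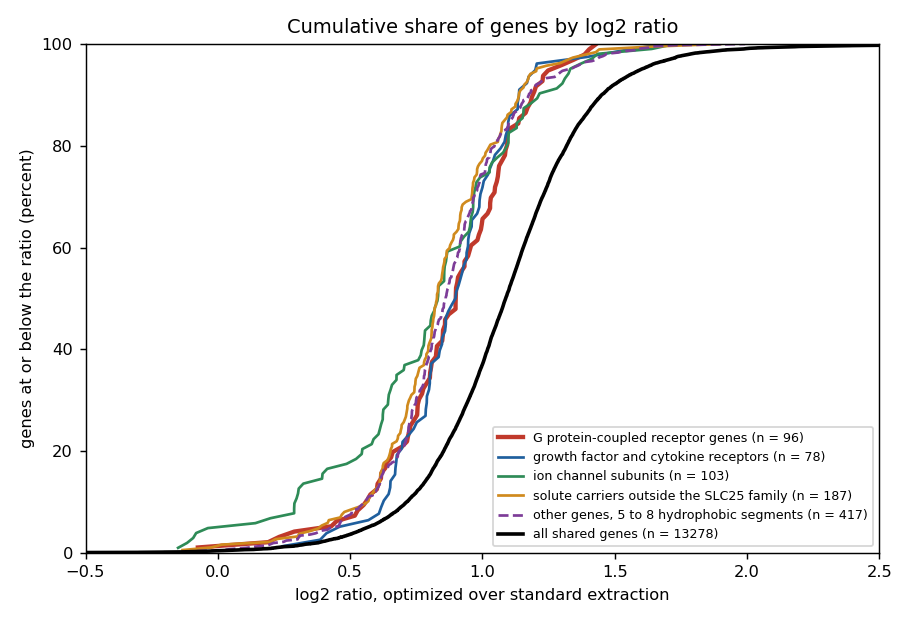
Percent of genes (y axis) at or below each log2 ratio, optimized over standard extraction (x axis, drawn from -0.5 to 2.5), for the 96 receptor genes (thick red line), 78 growth factor and cytokine receptor genes, 103 ion channel subunit genes, 187 solute carrier genes, 417 other genes with 5 to 8 hydrophobic segments (dashed) and all 13278 shared genes (black). The 417 genes include receptor genes outside the symbol pattern and some of the ion channel and solute carrier genes. The receptor line runs with those of the other membrane proteins and left of the black line over most of its length.

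Receptor classes for small transmitters had medians on both sides of the shared-gene median. Class C receptors for glutamate and GABA, which bind their ligand in a large outer domain, had a median log2 ratio of 0.70 over 6 genes. All 6 were below the median of all shared genes, as were 79.2% of the 96 receptor genes. After Grm5 and Grm3 came Grm7 at 0.75 and Grm8 at 0.81 in the authors' deposited table, both receptors that lower cyclic AMP and share 73.3% of their residues. The GABA-B receptor works as an obligate pair in which Gabbr1 binds GABA and Gabbr2 couples to the G protein. The 2 genes stood apart, with 0.60 for Gabbr2 and 1.07 for Gabbr1 in the authors' deposited table. Receptors for nucleotides and adenosine had a median on the other side, 1.16 over 4 genes. Of these 3 were above the median of all shared genes, as were 20 of the 96 receptor genes. All 4 were at least 2-fold higher, where 63.0% of all shared genes were. The other listed gene of the class, P2ry14, was in the standard extraction alone. Adora1, which lowers cyclic AMP on adenosine, stood at 1.40 in the authors' deposited table (2.65-fold), and Adora2b, which raises it, at 1.05. The ADP receptor gene P2ry1 was listed at 1.14 and the ATP and UTP receptor gene P2ry2 at 1.19 in the authors' deposited table.

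Amine and acetylcholine receptors had a median of 0.85 over 11 genes. Of these 4 (36.4%) were at least 2-fold higher, where 63.0% of all shared genes were. Among the adrenergic receptors, the authors' deposited table gave the beta receptor genes Adrb3 and Adrb1, which raise cyclic AMP, as 0.96 and 1.00. The alpha receptor genes Adra2a, Adra1a and Adra1b were lower in the authors' deposited table, at 0.70, 0.72 and 0.74, while Adra1d was listed at 1.03. The serotonin receptor genes Htr2a and Htr1b stood at 0.76 and 0.81 in the authors' deposited table. The muscarinic receptor genes differed by 0.33 on the log2 scale, with 0.85 for Chrm2 and 1.18 for Chrm3 in the authors' deposited table. Chrm3 couples to phospholipase C and Chrm2 to inhibition of adenylyl cyclase. The span of Chrm3 overlaps 4 other annotated genes on its strand.

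Lipid receptors fell in a prostanoid and a lysophospholipid class, which differed in median while their ratios overlapped. The 5 prostanoid receptor genes had the lowest class median, 0.55. Ptger2, Ptger3 and Ptgfr lay within 0.52 to 0.55 in the authors' deposited table, and Ptger4 was listed at 0.83. Ptger2 and Ptger4 both raise cyclic AMP on prostaglandin E, Ptger3 lowers it, and Ptgfr answers prostaglandin F. Ptger1, the prostaglandin E receptor linked to calcium, stood apart at 1.20 in the authors' deposited table. Of the 5 genes, all but Ptger3 are overlapped by another annotated gene on the other strand. The 7 lysophospholipid receptor genes lay closer together, with a median of 0.90 and a range from 0.79 to 1.08. All 7 were below the median of all shared genes, as were 79.2% of the 96 receptor genes. Of the lysophosphatidic acid receptors, the authors' deposited table gave Lpar4 as 0.79, Lpar1 as 0.80, Lpar2 as 0.86 and Lpar6 as 1.06. Lpar6 lies inside the span of the retinoblastoma gene Rb1 on the other strand. Of the sphingosine-1-phosphate receptors, S1pr2 was listed at 0.90, S1pr1 at 0.93 and S1pr3 at 1.08 in the authors' deposited table. S1pr1 was the only receptor gene that also stood in one of the 6 lists the study chose, that of the outer side of the plasma membrane.

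Peptide, protease-activated and chemokine receptors were all below the median of all shared genes, 8 of 8 genes. So were 79.2% of the 96 receptor genes, and 50.0% of all shared genes by construction. Sstr2 (chromosome 11, 113619342 to 113626028), a somatostatin receptor gene with a single coding exon, stood at 0.23 in the authors' deposited table; its span overlaps that of Slc39a11 on the other strand. The endothelin receptors, which raise calcium in astrocytes, stood at 0.29 (Ednra, chromosome 8, 77663031 to 77724464) and 0.63 (Ednrb) in the authors' deposited table, a difference of 0.34 between proteins of 57.1% identity. F2r, the thrombin receptor, was listed at 1.06 and its relative F2rl1, cut by trypsin-like proteases, at 0.85 in the authors' deposited table. The CXCL12 receptor gene Cxcr4 stood at 0.73 in the authors' deposited table. Ackr3, which takes up CXCL12 without G protein signalling, was listed at 0.85 and the scavenging chemokine receptor gene Ackr4 at 0.77 in the authors' deposited table.

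The frizzled genes, receptors for Wnt proteins, were the one class of which every annotated member was listed, 10 of 10. Their median was 1.01 and their range 0.78 to 1.25. The closest relatives differed among themselves: Fzd1, Fzd2 and Fzd7, which share 78.6% to 80.5% of their residues pairwise, stood at 1.25, 0.99 and 0.83 in the authors' deposited table. Fzd1 and Fzd7 had the widest gap, 0.42, among the 32 pairs of receptors of 1 class with at least 50% identity. Fzd5 and Fzd8 (71.1% identity) lay close together in the authors' deposited table, at 1.17 and 1.10. Fzd9 and Fzd10 (65.8%) did not, at 1.09 and 0.78. Fzd3 and Fzd6, known for planar cell polarity, stood at 1.03 and 0.86, and Fzd4, which also binds norrin, at 1.00 in the authors' deposited table. Over the 32 pairs the median gap was 0.17, against 0.25 over 647 pairs of the same class with lower identity. Pairs share genes, so these gaps are a description.

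Adhesion receptors, which carry long outer domains that many of them cut themselves, held 17 genes with a median of 0.90. Of these 16 were under the shared-gene median of 1.09, as were 79.2% of the 96 receptor genes. Adgrf5 (chromosome 17, 43360451 to 43459557), known for control of lung surfactant, was the lowest at 0.19 in the authors' deposited table. The 3 members of the G group lay together in the authors' deposited table: Adgrg1, which acts in cortical development, and Adgrg6, which acts in peripheral myelination, were both listed at 0.62, and Adgrg2, known from the epididymis, at 0.65. Adgre5, also called CD97, was listed at 0.57, the endothelial receptor gene Adgrl4 at 0.58 and Adgrd1 at 0.75 in the authors' deposited table. The latrophilin genes Adgrl2, Adgrl3 and Adgrl1, whose proteins join synapses, lay within 0.90 to 0.95 in the authors' deposited table. The brain-specific angiogenesis inhibitor genes Adgrb3, Adgrb2 and Adgrb1 stood at 0.91, 1.05 and 1.09 in the authors' deposited table. Adgra2, a Wnt7 coreceptor of brain vessels, was listed at 0.95, Adgra1 at 1.05 and Adgra3, the highest of the class, at 1.23 in the authors' deposited table. Adgrv1, an Usher syndrome gene with 90 coding exons, the most of the family, stood at 1.03 in the authors' deposited table.

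The numbered GPR and GPRC5 genes were the largest group, with a median of 0.93 over 28 genes. Of these 11 (39.3%) were at least 2-fold higher, where 63.0% of all shared genes were. Above the median of all shared genes lay 10 of the 28. After Gpr162, the authors' deposited table had as the next highest Gpr157 at 1.39, Gpr153 at 1.34, Gpr137 at 1.30, Gpr19 at 1.23 and Gpr161, which sits in the primary cilium and restrains Hedgehog signalling, at 1.20. Gpr146 stood at 1.16 in the authors' deposited table. The orphan receptors Gpr85, Gpr173 and Gpr27 form 1 group of conserved brain receptors. They stood at 1.14, 1.09 and 0.76 in the authors' deposited table. Gpr3 and Gpr12, which raise cyclic AMP without added ligand, stood at 0.90 and 0.87 in the authors' deposited table. Gpr37, found in glia, stood at 0.92 in the authors' deposited table. Apart from Gpr155, the lowest of the group in the authors' deposited table were Gpr75 at 0.43, which overlaps the span of Asb3 on its strand, Gprc5a, induced by retinoic acid, at 0.60 and Gpr63 at 0.66. The relatives of Gprc5a, Gprc5c and Gprc5b, stood at 0.90 and 1.09 in the authors' deposited table. Gpr165, Gpr176 and Gpr141 stood at 0.71, 0.80 and 0.82 in the authors' deposited table. Of the group, 8 genes bear the name but are not established G protein-coupled receptors. Among these, the authors' deposited table gave the lysosomal cholesterol sensor gene Gpr155 as 0.45, the Golgi protein genes Gpr108, Gpr89 and Gpr107 as 0.72, 0.90 and 0.99, Gpr137c and Gpr137b as 0.93 and 0.98, and Gpr180 as 1.06. The last of the 8 was Gpr137, given above.

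Among the 5 receptor genes listed in the optimized extraction alone, Htr7 is a serotonin receptor gene that raises cyclic AMP, Adra2c an adrenergic receptor gene, Gpr4 a proton-sensing receptor gene and Gpr26 an orphan receptor gene. The 3 listed in the standard extraction alone were Vipr2, which binds vasoactive intestinal peptide, P2ry14, which binds UDP-glucose, and Gpr182. They were 4.81% (optimized alone) and 2.88% (standard alone) of the 104 receptor genes. Over all 13970 listed genes the shares were 4.42% (617) for the optimized and 0.537% (75) for the standard extraction alone. Over the 12946 listed protein-coding genes they were 2.01% (260) and 0.510% (66). These tables hold no measured value, and the sources used here do not give the rule that put a gene there. The GENCODE annotation holds 215 protein-coding genes that meet the pattern, so 111 were in neither extraction's list. Besides the frizzled genes, the classes listed most fully were prostanoid receptors (5 of 7), lysophospholipid receptors (7 of 11) and adhesion receptors (17 of 27). The least so were chemokine receptors, with 3 of 20. Listed were also 13 of 28 amine and acetylcholine, 6 of 10 glutamate and GABA, 5 of 11 nucleotide and adenosine, 6 of 15 peptide and protease-activated and 32 of 76 GPR and GPRC5 genes.

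The lists of G protein subunits and RGS proteins had medians close to that of all shared genes, and receptor kinases with arrestins a higher one. The receptor genes' median lay below that of all shared genes. The G alpha, G gamma and RGS medians exceeded the shared-gene median by only 0.01, 0.02 and 0.03. Other shared protein-coding genes with no hydrophobic segment had a median of 1.14. Counts at least 2-fold higher in these lists stand beside the 63.0% of all shared genes. Of 20 shared genes for G protein subunits 15 were at least 2-fold higher, with a median of 1.13. The 11 G alpha genes had a median of 1.10, and 6 (54.5%) were at least 2-fold higher; the authors' deposited table gave Gnaz as 1.34, Gnai2, which inhibits adenylyl cyclase, as 1.29, and Gna14, of the G alpha q group, as 0.24. The ratio of Gna12, a G alpha subunit of another group, corresponds in the same table to a 2.83-fold higher value. Gnas, which stimulates adenylyl cyclase, and Gna15 were listed in the optimized extraction alone. All 4 G beta genes (median 1.16) and all 5 G gamma genes (median 1.11) were at least 2-fold higher. Gng5, a G gamma subunit, stood at 2.18 in the authors' deposited table, a 4.53-fold higher value and above every receptor gene. All 7 receptor kinase and arrestin genes were at least 2-fold higher, with a median of 1.26. The 5 kinases had a median of 1.35, and the 2 arrestins one of 1.08, near the 1.09 of all shared genes. Of the kinases, the authors' deposited table gave Grk6 as 1.42, Grk4 as 1.35 and Grk5 as 1.26, and its ratio for Grk3 corresponds to a 3.03-fold higher value. Of the 15 RGS genes 9 (60%) were at least 2-fold higher, with a median of 1.11 and a range from 0.28 (Rgs22) to 1.39 (Rgs6) in the authors' deposited table.

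Effector enzymes and accessory membrane proteins had medians between that of the receptor genes and that of all shared genes. The 8 adenylyl cyclases, which span the membrane, had a median of 0.97 and 4 were at least 2-fold higher. Among them the authors' deposited table gave Adcy7, Adcy3 and Adcy2 as 0.68, 0.84 and 0.87 and Adcy1 as 1.41. The 3 phospholipase C beta genes, whose proteins have no membrane span, had a median of 0.97 too. They ran from 0.94 to 0.99, just under the cutoff, so none was at least 2-fold higher. The 8 accessory proteins, among them coreceptors and proteins that escort receptors to the surface, had a median of 0.93. Ramp1, a partner of the calcitonin receptor-like receptor, was listed at 1.33, against 0.70 for Ramp2 and 0.37 for Mrap, which escorts a melanocortin receptor, in the authors' deposited table. A further 35 receptor genes that the symbol pattern does not take had a median of 0.73, and 7 were at least 2-fold higher. The lowest of them in the authors' deposited table were Prokr2 at 0.11, the stem cell receptor gene Lgr5 at 0.31, Mrgprf at 0.37 and the kappa opioid receptor gene Oprk1 at 0.43. Of receptor genes outside the pattern, Galr2, Pth1r, Opn5 and Qrfpr were listed in the optimized extraction alone and Cysltr1 in the standard extraction alone. The counts at least 2-fold higher in these lists also stand beside the 63.0% of all shared genes. No difference between these lists was tested.

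**Figure D3:**
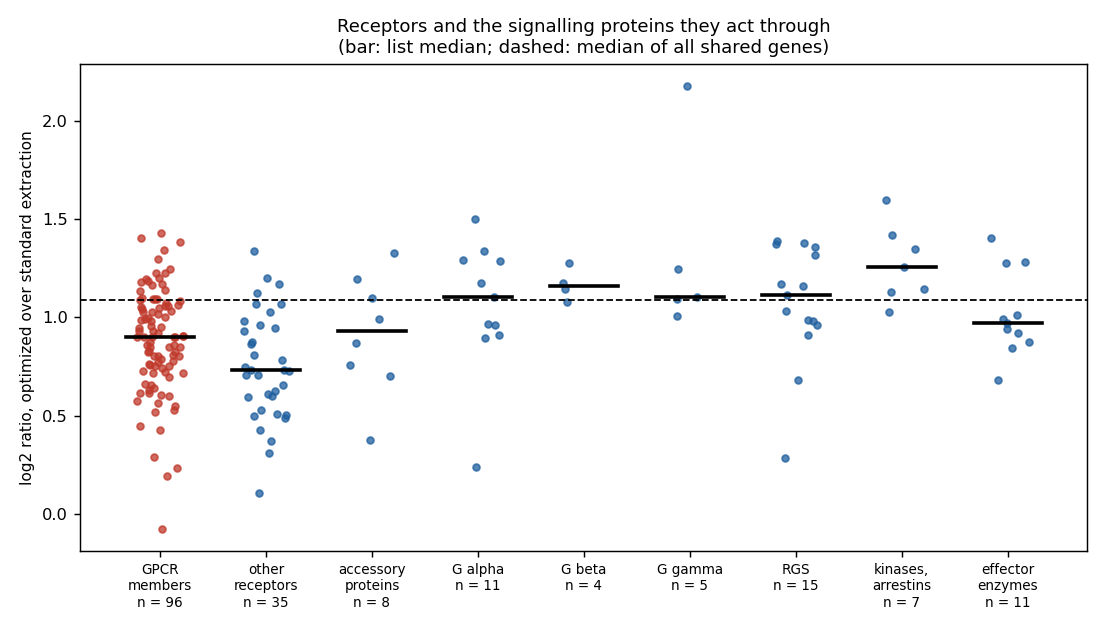
Log2 ratio (optimized over standard extraction, y axis) of the 96 receptor genes (red) and of other receptors, accessory proteins, G protein subunits, RGS proteins, receptor kinases with arrestins, and effector enzymes (blue), 1 point per gene with sideways jitter, a bar at each list median and a dashed line at the median of all shared genes (1.09). The lowest of the 7 kinase and arrestin genes lies at 1.03, above the receptor median of 0.90.

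Among the features of the receptor mRNAs that were computed, GC content went most closely with the ratio over all 96 genes, a pattern noticed after the values were seen. Coding GC content ran from 40.3% (Lpar6) to 72.8% (Gpr27). Over the 96 receptor genes its Spearman rank correlation with the log2 ratio was 0.40 and Pearson's r 0.35, a description across genes, which share libraries and are not independent replicates. In 3 groups of 32 genes split by coding GC, the medians were 0.78, 0.91 and 1.01 (lowest to highest GC). At least 2-fold higher were 6, 11 and 17 genes (18.8%, 34.4% and 53.1%), where 63.0% of all shared genes were. The 417 other genes with 5 to 8 hydrophobic segments, among them receptor genes outside the symbol pattern, had a rank correlation of 0.07. Their medians were 0.86, 0.87 and 0.85 within the same GC bounds. Over 12594 shared protein-coding genes the rank correlation was 0.06. Whether receptor genes differ from the others in this was not tested. Within classes of at least 10 genes the rank correlation was 0.56 for the GPR and GPRC5 genes, 0.54 for adhesion receptors, 0.41 for frizzled genes and -0.07 for amine and acetylcholine receptors. It was 0.47 over the 63 receptor genes with several coding exons and 0.19 over the 33 with 1. The sources used here do not say whether reads were corrected for GC content, and its part in these values was not tested.

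**Figure D4:**
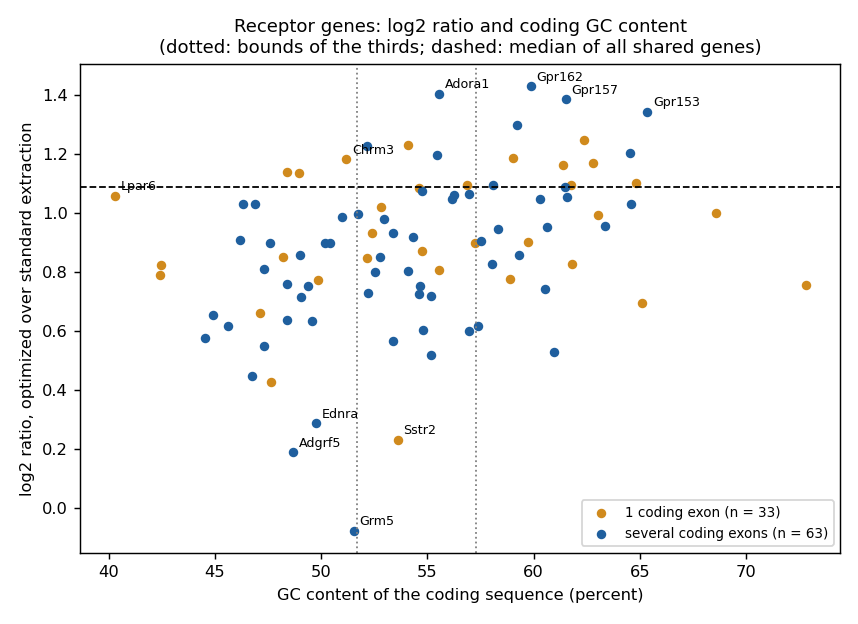
Log2 ratio (optimized over standard extraction, y axis) against GC content of the coding sequence in percent (x axis) for the 96 receptor genes, orange for 33 genes with 1 coding exon and blue for 63 with several, with dotted lines at the bounds of the GC groups and a dashed line at the median of all shared genes. The lowest points, Grm5, Adgrf5, Sstr2 and Ednra, lie between 48.7% and 53.6% GC. Of the highest, Adora1 lies at 55.6%, and Gpr162, Gpr157 and Gpr153 between 59.9% and 65.3%.

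Over all 96 genes the other features went with the ratio less. Coding length had a rank correlation of -0.08 over the receptor genes, the length of the 3′ untranslated region 0.02, the number of coding exons -0.17 and the number of hydrophobic segments -0.16. Over 12594 shared protein-coding genes these were -0.20, 0.03, -0.18 and -0.35 in that order, so there the number of segments went more closely with the ratio than coding GC (0.06). Within single classes other features went with it as closely or more. Over the 17 adhesion receptor genes Pearson's r was -0.64 with the length of the 3′ untranslated region and 0.45 with coding GC, with rank correlations of -0.45 and 0.54. Over the 28 GPR and GPRC5 genes r was -0.51 with the number of segments and 0.48 with coding GC. By rank, coding GC was the closer of these, with correlations of -0.44 and 0.56 in that order. Over the 11 amine and acetylcholine receptor genes the rank correlation with the 3′ length was -0.34, and over the 33 genes with 1 coding exon it was 0.26. The 33 genes with 1 coding exon had a median of 0.93 and the 63 others 0.90. A hydrophobic segment within the first 40 residues, which may be a signal peptide or a first membrane span, was found in 29 receptors, with a median of 0.92, against 0.90 for the 67 without. Another annotated gene overlapped 20 of the 96 receptor genes on the same strand and 45 on the other strand. Per the labels the library kit keeps strand. The sources used here do not say whether counting used it, so reads of such pairs may not have been told apart. For Grm5 5 genes overlap on its strand, and for Adgrf5 1, Gm25135.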

How the data were processed

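RNA of heavy complexes was sequenced in 6 libraries, 3 per extraction. Build mm10 and the tools TopHat2 and featureCounts are named per the submitters' processing notes. For each gene the authors deposited a log2 fold change of optimized over standard, per the file headers. The sources used here give no versions, scaling between libraries, strand setting or listing rule. The remaining deposited tables name genes of 1 extraction alone, with a biotype and no score or other value. The depth of the libraries is unknown.

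The planned fits across libraries need values per library, not analysed here. Genes were instead summarised by medians, quartiles and counts at least 2-fold different (log2 ratio of at least 1), beside the same over all shared genes. The receptor genes and lists were chosen with earlier results of these data known. All receptor genes may be named; other lists give the 4 genes farthest from the median of all shared genes, and genes of 1 extraction alone. Genes named in text on cell markers are from the marker list.

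Identifiers matched the GRCm38 annotation, GENCODE release M21, for 104 of 104 receptor genes. A representative coding transcript (principal isoform, then longest coding sequence) gave exons, lengths and GC content. Hydrophobic segments were non-overlapping windows of 19 residues with a Kyte-Doolittle mean of at least 1.6. Identity was counted in global alignments (BLOSUM62 matrix, gap scores -10 and -0.5) over the shorter protein. Protein sequences are not printed. The code of the summaries was checked on shuffled deposited ratios with a known shift added, and the segment count on made sequences. These checks bear on the code alone. Biopython 1.88 made the alignments, matplotlib 3.10.9 the figures, and scipy 1.17.1 the correlations, under Python 3.11.15 with pandas 2.3.3 and numpy 2.4.6. Unmatched columns of per-sample values numbered 0. Some genes are counted in the summaries but not reported here by name.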

Additional observations from a re-analysis of the deposited data

How the results depend on the processing

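No paired analysis was possible because the deposited tables hold 1 ratio per gene and no value per library; for the same reason no library could be left out and no other scaling of counts was run. The median log2 ratio of the receptor genes stayed within 0.86 to 0.90 under the alternatives run, which were to use the mean (0.88), to leave out the 8 proteins that are not established receptors (0.90), to add 35 receptors outside the symbol pattern (0.86), to leave out S1pr1 as a member of a list the study chose (0.90) and to leave out 20 genes overlapped on the same strand (0.90). Under the last 4 of these the counts at least 2-fold higher were 32 of 88, 41 of 131, 34 of 95 and 29 of 76. The threshold sets that count: 85 of 96 receptor genes were at least 1.5-fold higher, and 0 were at least 2-fold above the median of all shared genes. Against the median of protein-coding genes 74 of 96 lay below. With the added receptors, 9 of 144 genes in place of 5 of 104 were listed in the optimized extraction alone. Of all listed genes 4.42% were, and of listed protein-coding genes 2.01%. The difference of medians between receptors with and without a hydrophobic segment near the start was 0.02, 0.08 within the first 60 residues and 0.13 with a Kyte-Doolittle mean of 2.0, which left 11 receptors with such a segment. The rank correlation with coding GC content, and its alternatives, were chosen after the data were seen, and it lay between 0.34 (with the added receptors) and 0.44 (without the 2 genes of most extreme GC content). A change under 0.1 on the log2 scale or in a correlation, and under 1.5 times in a count, was taken as small. Without values per library, neither the spread between batches nor the counts behind a low-abundance receptor can be given, and each deposited ratio has an unknown error.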
